A study of Homo sapiens with 12 samples.

Results

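LGR5 and 9 other genes of the Wnt pathway were described in the papillary thyroid carcinoma line TPC1 and in 3 clones derived from it that carry a heterozygous disruption of Dicer1, the gene of the ribonuclease that makes mature microRNAs. The 10 genes are LGR5, LGR4, AXIN2, TCF7, LEF1, NKD1, RNF43, ZNRF3, WNT5A and DKK1. They were chosen by symbol among the 58302 genes of the deposited table, with their values in these libraries already known, so their levels are given as a description and without a test. RNA was sequenced from 12 libraries, 3 of each line. The TPC1 libraries are labelled wild type and untreated, and the lines D11, WB1 and TD5 are labelled Dicer1 (+/-) and derive from TPC1 cells transfected with a CRISPR/Cas9 plasmid whose guide targets exon 11 of the gene. Each clone line grew from 1 sorted cell, all 4 lines were kept in the same RPMI medium, and the labels give no unedited clone that went through the same sorting, so Dicer1 status and the choice of a single cell cannot be told apart. The study states in general that its experiments were repeated independently, but no label says that the 3 libraries of a line came from separate cultures, so the spread between them may be technical.

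Wnt ligands are secreted proteins that bind Frizzled receptors together with LRP5 or LRP6. Without ligand, a complex built on AXIN and APC marks beta-catenin for degradation, and with ligand beta-catenin enters the nucleus and works with the DNA-binding factors TCF7, LEF1, TCF7L1 and TCF7L2. LGR4 and LGR5 are receptors for R-spondins, which keep the ubiquitin ligases RNF43 and ZNRF3 from removing Frizzled from the cell surface. LGR5 is known as a marker of stem cells in the intestine and other tissues, and AXIN2, NKD1, RNF43, ZNRF3 and LGR5 are widely used as readouts of the pathway because beta-catenin induces them in many tissues.

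The authors scaled each library to 20000000 aligned reads, and the values below are these scaled reads. The reads behind them, estimated from the spacing of the whole numbers, were 12700000 to 21020000 per library, and 3 reads correspond to 2.85 to 4.72 scaled reads, a floor that covers counting error only. DICER1 had 1101 to 1360 scaled reads in TPC1, 977 to 1093 in D11, 815 to 939 in WB1 and 627 to 809 in TD5, so every clone library lay below every TPC1 library. The DICER1 value counts reads of both alleles and does not measure the edit itself. Of the thyroid markers, PAX8 had 7248 to 9879 scaled reads and FOXE1, HHEX and TG were also above the floor, with FOXE1 at a mean of 294 in TPC1 against 143, 132 and 117 in D11, WB1 and TD5, while TSHR, SLC5A5 and NKX2-1 were at 0 in all 12 libraries. Of the 6 epithelial markers, KRT8, KRT18 and KRT7 were present and CDH1, EPCAM and KRT19 had at most 6 scaled reads. The 6 together summed to 21317 to 24330 in TPC1 and lay lower in all 9 clone libraries, at 17176 to 18680 in D11, 18108 to 18580 in WB1 and 16887 to 19326 in TD5. Of the 10 markers of fibroblasts, leukocytes and endothelium, COL1A1 had 48 to 97 scaled reads, PDGFRB 37 to 192 and CD68 921 to 1514 over the 12 libraries, DCN, CD3E and CDH5 were at 0 throughout, and the other 4 had at most 7. The summed level of the 3 leukocyte markers, nearly all of it CD68, was 923 to 1150 in TPC1, 975 to 1125 in D11, 1248 to 1514 in WB1 and 1207 to 1361 in TD5. The 4 fibroblast markers summed to 184 to 284 in TPC1, 165 to 203 in D11, 95 to 143 in WB1 and 187 to 219 in TD5, and the part of any of these markers in the results that follow was not tested.

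The sequence upstream of DKK1 is shown because AXIN2 and DKK1, both known targets of beta-catenin, lay on opposite sides of TPC1 in WB1 and TD5. Those of LGR4 and LEF1 are shown beside it. RefSeq (GRCh38.p14) gave the 250 bases before the transcription start for 6 of the 10 members, and LGR5, AXIN2, NKD1 and ZNRF3 were not among them. Each run was searched on both strands for CTTTGAT and CTTTGAA, the letters that TCF and LEF factors prefer, which do not overlap each other. Such a match is held by 2086 of 35116 promoters of this length (5.94%). The DKK1 run has 1 match, which starts 95 bases before the transcription start and is in capitals, while LGR4 and LEF1 have 0. The runs of WNT5A, TCF7 and RNF43, searched but not shown, have 0 as well. A match is a description of letters and does not show binding. The runs lie at chr10:52314031-52314280 on the plus strand (DKK1), chr11:27472791-27473040 on the minus strand (LGR4) and chr4:108166302-108166551 on the minus strand (LEF1), and each is written 5′ to 3′ along its gene. RefSeq and GENCODE place the start of LEF1 differently, so its run lies inside the position given for the gene further on.
DKK1: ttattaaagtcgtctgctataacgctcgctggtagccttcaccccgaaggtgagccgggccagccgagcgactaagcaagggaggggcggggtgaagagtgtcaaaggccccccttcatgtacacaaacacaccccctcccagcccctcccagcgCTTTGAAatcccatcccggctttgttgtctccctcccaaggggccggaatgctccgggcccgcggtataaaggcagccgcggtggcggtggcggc
LGR4: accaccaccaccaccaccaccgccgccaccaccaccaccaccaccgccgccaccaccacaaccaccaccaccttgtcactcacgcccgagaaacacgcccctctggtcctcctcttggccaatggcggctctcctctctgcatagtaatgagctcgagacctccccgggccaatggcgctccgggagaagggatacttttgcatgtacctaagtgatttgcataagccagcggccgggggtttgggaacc
LEF1: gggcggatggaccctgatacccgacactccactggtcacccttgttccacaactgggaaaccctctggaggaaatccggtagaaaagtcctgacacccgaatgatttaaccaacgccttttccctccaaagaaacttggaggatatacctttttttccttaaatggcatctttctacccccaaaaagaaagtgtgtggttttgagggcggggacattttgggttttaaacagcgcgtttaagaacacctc
The GC content of these runs was 62.8% for DKK1, 62% for LGR4 and 47.6% for LEF1.

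LGR5 had the highest ratio to TPC1 of the tested members in WB1, and its level differed between the clones as well. LGR5 (ENSG00000139292, chr12:71439798-71586310, plus strand) had 219, 400 and 162 scaled reads in TPC1, while D11 had 364, 420 and 402, WB1 739, 925 and 856 and TD5 725, 488 and 565. All 6 libraries of WB1 and TD5 lay above the 3 TPC1 libraries, while D11 overlapped with TPC1 because of TPC1 replicate 2. In RNA from whole cultures, more cells with LGR5 and more LGR5 RNA per cell cannot be told apart. The means for TPC1, D11, WB1 and TD5 were 260 ± 124, 395 ± 28.6, 840 ± 94 and 593 ± 121 (SD, n = 3 for each line, as for all means that follow), which puts the clones at 1.52, 3.23 and 2.28 times TPC1. On the scale of log2(value per 1000000 + 1), fitted over all 12 libraries with limma, the difference from TPC1 was 0.65 in D11, 1.70 in WB1 and 1.20 in TD5, each with a standard error of 0.21. Between clones WB1 was 1.05 above D11, TD5 0.54 above D11 and TD5 lay 0.50 below WB1 (log2 difference of −0.50), so the order of the clones was WB1, TD5, D11. Among these neighbours, no library of WB1 was below one of TD5 and none of TD5 below one of D11.

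The TPC1 libraries disagreed about LGR5 more than about nearly any gene of a similar level. Its coefficient of variation in TPC1 was 47.7%, and of the 6405 tested genes with a TPC1 mean from 5 to under 40 per 1000000 1 had a higher value, where the median was 7.97%. In D11, WB1 and TD5 it was 7.23%, 11.2% and 20.4%, against medians of 6.79%, 7.83% and 9.36%. Without TPC1 replicate 2, the highest of the 3, the log2 difference of LGR5 was 0.99 in D11, 2.04 in WB1 and 1.54 in TD5. Without TPC1 replicate 3, the lowest, it was 0.39, 1.43 and 0.93. The direction was the same in each of these, and the log2 difference in D11 was 0.99 or 0.39 against 0.65 with all TPC1 libraries. After a correction of each library for the GC content of genes, the difference of LGR5 was 0.50 in D11, 1.56 in WB1 and 1.18 in TD5. With 4 in place of 1 added before the logarithm it was 0.54, 1.49 and 1.03. In both settings D11 was under 1.5-fold on this scale.

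LGR4, the broadly expressed relative of LGR5, was the member with the most scaled reads. LGR4 (ENSG00000205213, chr11:27365961-27472790, minus strand) had 1438, 1455 and 1313 scaled reads in TPC1, while D11 had 1497, 1592 and 1850, WB1 2022, 1903 and 1636 and TD5 1711, 1447 and 2115. Every library of D11 and WB1 was above TPC1, and TD5 overlapped with it through replicate 2. The ratio of the means was 1.17 in D11, 1.32 in WB1 and 1.25 in TD5, under 1.5-fold in each, with log2 differences of 0.22, 0.39 and 0.31 (standard error 0.11). A correction of each library for the GC content of genes brought the difference to 0.03 in D11 and 0.22 in WB1.

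**Figure D1:**
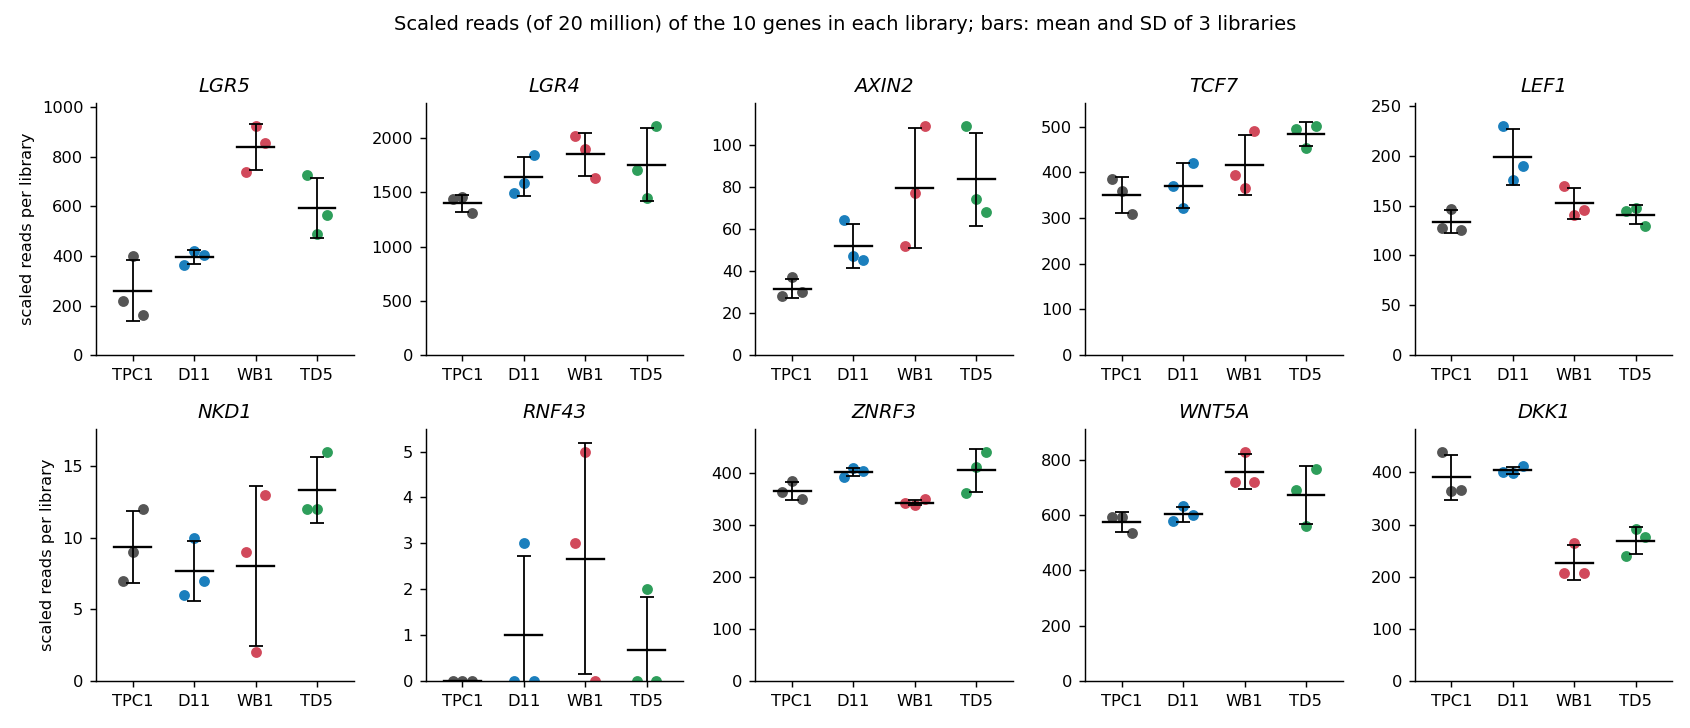
Scaled reads (of 20000000 per library, vertical axes from 0) of the 10 genes in the 3 libraries of TPC1, D11, WB1 and TD5, with a line for the mean and a bar for the SD of each line. LGR5 lies between 162 and 400 in TPC1 and between 488 and 925 in WB1 and TD5, DKK1 lies lower in WB1 and TD5 than in TPC1 and D11, and RNF43 has at most 5 scaled reads.

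AXIN2 is a scaffold of the complex that degrades beta-catenin and a feedback inhibitor that the pathway itself induces. AXIN2 (ENSG00000168646, chr17:65528563-65561648, minus strand) had 28, 37 and 30 scaled reads in TPC1, while D11 had 64, 47 and 45, WB1 52, 77 and 109 and TD5 109, 74 and 68. All 9 clone libraries lay above all 3 TPC1 libraries. The means were 31.7 ± 4.73, 52 ± 10.4, 79.3 ± 28.6 and 83.7 ± 22.1 in TPC1, D11, WB1 and TD5, or 1.64, 2.5 and 2.64 times TPC1 in the clones. The log2 differences were 0.47, 0.91 and 0.99 (standard error 0.19), and because the gene is low they depended on the constant added before the logarithm. With 0.1 in place of 1 they were 0.67, 1.22 and 1.33, and with 4 they were 0.24, 0.50 and 0.54. The clones differed from each other by at most 0.51 on this scale. WB1 overlapped with both other clones, while D11 lay just below TD5.

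The gene AC004805.1 shares a strand and part of its position with AXIN2, and how the authors' counting divided reads between them is uncertain. AC004805.1 had 23, 25 and 18 scaled reads in TPC1, while D11 had 49, 34 and 38, WB1 44, 62 and 73 and TD5 63, 51 and 47, so its libraries in all 3 clones also lay above those of TPC1. The sum of both genes was 53.7 ± 7.37 in TPC1, 92.3 ± 17.9 in D11, 139 ± 43 in WB1 and 137 ± 30.4 in TD5, which is 1.72, 2.59 and 2.56 times TPC1. AXIN2 was thus close to the same multiple of TPC1 with and without the reads of its neighbour.

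Of the other feedback inhibitors, ZNRF3 was close to TPC1 in all 3 clones, and RNF43 and NKD1 had few reads. ZNRF3 (ENSG00000183579, chr22:28883572-29057488, plus strand), a membrane ubiquitin ligase that removes Frizzled, had 363, 384 and 350 scaled reads in TPC1, while D11 had 393, 409 and 403, WB1 342, 338 and 349 and TD5 361, 412 and 441. D11 lay just above the range of TPC1, WB1 just below it, and TD5 overlapped with it. The ratios of the means were 1.1, 0.938 and 1.11, and the log2 differences 0.13, −0.09 and 0.14 (standard error 0.08). RNF43 (ENSG00000108375, chr17:58353676-58417595, minus strand), the related ligase, had 0, 0 and 0 scaled reads in TPC1, while D11 had 0, 3 and 0, WB1 3, 5 and 0 and TD5 0, 2 and 0. In 11 of the 12 libraries RNF43 was at or under the floor, so no fold is given. The antisense gene TSPOAP1-AS1, which overlaps RNF43, had 460 to 602 scaled reads, and without a stated strand setting for the counting the reads of the pair cannot be told apart. NKD1 (ENSG00000140807, chr16:50548396-50649249, plus strand), which binds Dishevelled and dampens the signal, had 7, 9 and 12 scaled reads in TPC1, while D11 had 6, 10 and 7, WB1 9, 2 and 13 and TD5 12, 12 and 16. NKD1 and RNF43 lay under the filter of at least 1 per 1000000 in at least 3 libraries and entered no fit, and for NKD1 each clone met or overlapped the range of TPC1.

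TCF7 and LEF1, the DNA-binding partners of beta-catenin, were each highest in a different clone. TCF7 (ENSG00000081059, chr5:134114681-134151865, plus strand) had 385, 360 and 308 scaled reads in TPC1, while D11 had 371, 322 and 420, WB1 394, 366 and 491 and TD5 495, 453 and 502. Only the TD5 libraries were all above TPC1, at 1.38 times its mean, against 1.06 in D11 and 1.19 in WB1, and the log2 differences were 0.07, 0.23 and 0.44 (standard error 0.12) in D11, WB1 and TD5. LEF1 (ENSG00000138795, chr4:108047545-108168956, minus strand) had 128, 147 and 126 scaled reads in TPC1, while D11 had 230, 176 and 190, WB1 170, 141 and 146 and TD5 145, 148 and 130. Only the D11 libraries were all above TPC1, at 1.49 times its mean, against 1.14 in WB1 and 1.05 in TD5. The log2 differences of LEF1 were 0.50, 0.16 and 0.07 (standard error 0.11), and D11 lay above WB1 and TD5 by 0.34 and 0.44 (WB1 minus D11 −0.34, TD5 minus D11 −0.44). TCF7 overlaps SKP1 on the opposite strand, which had 3983 to 4720 scaled reads, and LEF1 overlaps LEF1-AS1, which had 11 to 35. Whether reads of these partners entered the values was not tested.

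WNT5A, a ligand known mainly for signalling that does not pass through beta-catenin, was expressed in every library. WNT5A (ENSG00000114251, chr3:55465715-55490539, minus strand) had 595, 595 and 534 scaled reads in TPC1, while D11 had 578, 632 and 600, WB1 719, 830 and 721 and TD5 692, 561 and 766. Only the WB1 libraries were all above TPC1, with a mean of 757 ± 63.5 against 575 ± 35.2. The ratios of the means were 1.05, 1.32 and 1.17 and the log2 differences 0.07, 0.38 and 0.21 (standard error 0.10) in D11, WB1 and TD5. After the GC correction the difference was −0.09 in D11 and 0.24 in WB1.

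DKK1, a secreted inhibitor that binds LRP5 and LRP6, was the only member whose mean lay 1.5-fold or more below that of TPC1 in any clone. DKK1 (ENSG00000107984, chr10:52314281-52318042, plus strand) had 440, 365 and 366 scaled reads in TPC1, while D11 had 401, 399 and 412, WB1 207, 265 and 208 and TD5 240, 291 and 277. All 6 libraries of WB1 and TD5 lay below all 6 of TPC1 and D11. The means were 390 ± 43, 404 ± 7, 227 ± 33.2 and 269 ± 26.4, so D11, WB1 and TD5 stood at 1.03, 0.581 and 0.69 times TPC1. The log2 differences from TPC1 were 0.05, −0.74 and −0.50 (standard error 0.11), and those from D11 were −0.79 in WB1 and −0.56 in TD5. After the GC correction the small difference in D11 was −0.07. WB1 and TD5, the lines with the lowest DKK1, were those with the highest LGR5, which is a statement about 4 lines and not a test.

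**Figure D2:**
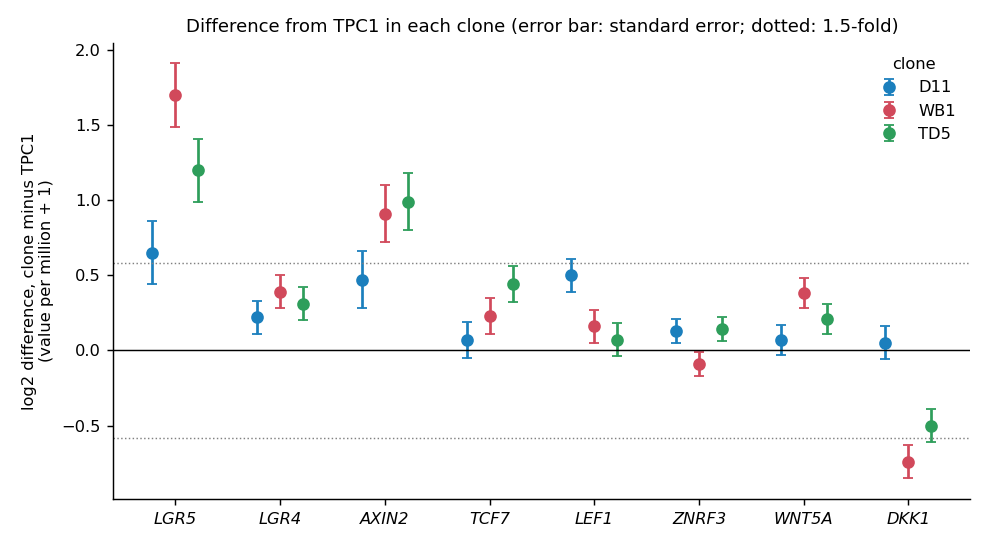
Difference of each clone from TPC1 on the scale of log2(value per 1000000 + 1) for the 8 members that passed the filter on low values, with the standard error from limma as bars and dotted lines at 1.5-fold. LGR5 reaches 1.70 in WB1 and AXIN2 0.99 in TD5, both on the higher side in all 3 clones, while DKK1 is at −0.74 in WB1 and 0.05 in D11.

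For each clone, those members were counted that lay wholly outside the range of TPC1 with a mean at least 1.5-fold away. In D11 1 of the 8 tested members did so on the higher side (AXIN2) and 0 on the lower side, where 5.31% and 2.73% of all 16027 tested genes did. In WB1 it was 2 higher (LGR5 and AXIN2) and 1 lower (DKK1), against 6.06% and 2.42% of all tested genes. In TD5 it was 2 higher (LGR5 and AXIN2) and 0 lower, against 2.1% and 2.51%. Since the members were picked with these values known, nothing is read from these shares. In D11 the count rests on single libraries, since without TPC1 replicate 2 it was 3, with LGR5 and LEF1 added, and without D11 replicate 2 or 3 it was 2. Without TD5 replicate 2, DKK1 also passed 1.5-fold in TD5. With no minimum fold, D11 had 4 members higher and 0 lower, WB1 had 4 and 2, and TD5 had 3 and 1.

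Divided by the exon length of each gene, the levels can be set roughly side by side. This length joins all exons annotated to a gene and is not that of the transcripts expressed, so the order also depends on the annotation. In TPC1 the order in scaled reads per 1000000 per kilobase was LGR4 (11 ± 0.61), DKK1 (8.78 ± 0.968), WNT5A (4.01 ± 0.246), ZNRF3 (2.61 ± 0.123), LGR5 (2.49 ± 1.19), TCF7 (1.74 ± 0.195), LEF1 (1.25 ± 0.108), AXIN2 (0.304 ± 0.0454), NKD1 (0.0269 ± 0.00724) and RNF43 at 0. LGR5 was not separated by its spread there from ZNRF3, TCF7 or LEF1. In WB1 the level of LGR5 was 8.04 ± 0.9 and second only to LGR4 (14.6 ± 1.55), above WNT5A (5.29 ± 0.444) and DKK1 (5.1 ± 0.747), which did not differ beyond their spread. In TD5 LGR5 (5.67 ± 1.16) and DKK1 (6.06 ± 0.593) were level within their spread. In D11 LGR5 (3.78 ± 0.273) lay below DKK1 (9.09 ± 0.157) and close to WNT5A (4.21 ± 0.19). AXIN2 stayed the lowest of the 8 tested members in all 4 lines, between 0.269 and 1.05 per library.

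The genes whose pattern over the 12 libraries was most like that of LGR5 were sought among all tested genes, by the root mean square difference of log2(value per 1000000 + 1) relative to each gene's own TPC1 mean. The 5 nearest were VEGFA and NOX5 (both 0.30), PPFIA4 and ZMIZ1-AS1 (both 0.34) and TNC (0.35), where the median over all tested genes was 1.11. VEGFA, an angiogenic growth factor, had 847, 1141 and 740 scaled reads in TPC1, while D11 had 1306, 1120 and 1376, WB1 2116, 2027 and 2523 and TD5 2355, 1536 and 2223. NOX5, a NADPH oxidase, had 2118, 4008 and 1278 in TPC1, while D11 had 2752, 2246 and 2939, WB1 4956, 6891 and 8698 and TD5 7077, 3744 and 5331. TNC, an extracellular matrix protein, had 1134, 1819 and 1054 in TPC1, while D11 had 1765, 1502 and 1642, WB1 3243, 2963 and 3320 and TD5 2631, 2209 and 2356. The genes were picked for likeness over these same libraries, so the likeness of single libraries is part of how they were chosen. PPFIA4 ranged from 50 to 282 and ZMIZ1-AS1 from 13 to 96 scaled reads over the 12 libraries. With a constant of 4 in place of 1, VEGFA, NOX5 and TNC stayed among the nearest 5, PPFIA4 ranked 8 and ZMIZ1-AS1 ranked 58.

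Of the other members AXIN2 was nearest to LGR5 by this measure (0.51, rank 26), followed by LGR4 (0.87), WNT5A (0.91), TCF7 (0.92), LEF1 (1.00) and ZNRF3 (1.11). DKK1 was the farthest of the members, at 1.55 and rank 15729. For the members these values are given with a constant of 1 only, and the log2 differences of the low gene AXIN2 depended on that constant.

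**Figure D3:**
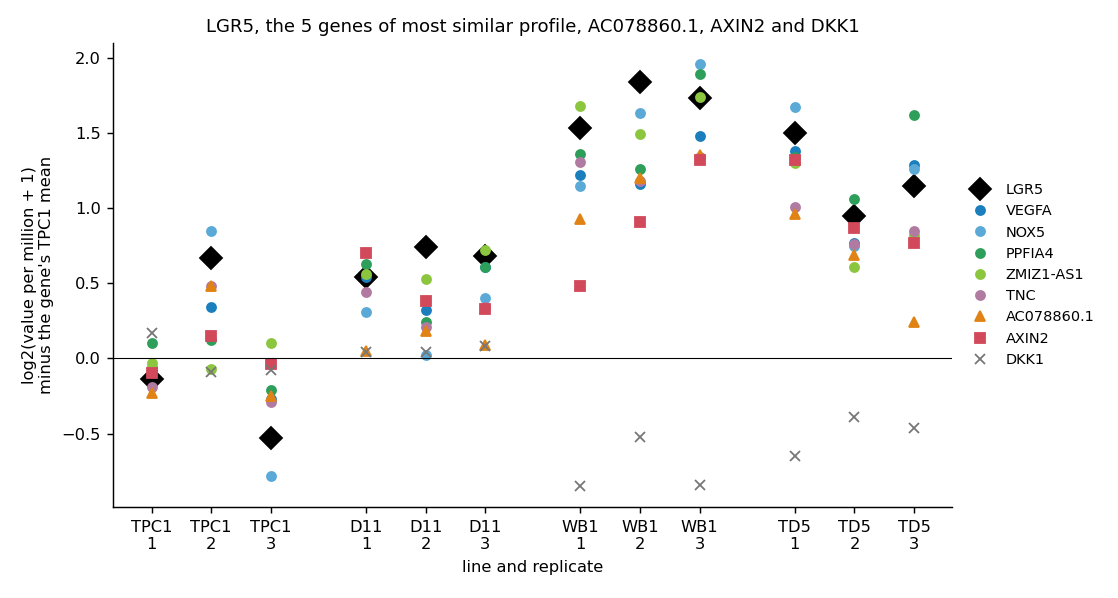
Level of LGR5, of the 5 genes with the nearest pattern, of AC078860.1, AXIN2 and DKK1 in each of the 12 libraries, as log2(value per 1000000 + 1) minus the gene's TPC1 mean. In TPC1 replicate 2 all genes shown except ZMIZ1-AS1 and DKK1 lie above their TPC1 means. In WB1 and TD5 DKK1 lies below 0 where the other genes lie above it.

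The neighbourhood of LGR5 on chromosome 12 was also examined. Within 500 kb of LGR5 the table held 19 genes, of which 7 were tested. AC078860.1 (ENSG00000257761, chr12:71587642-71594404, minus strand), a long non-coding RNA that ends 1.33 kb beyond LGR5 on the opposite strand, had 32, 65 and 31 scaled reads in TPC1, while D11 had 43, 49 and 45, WB1 96, 120 and 135 and TD5 98, 78 and 52. As for LGR5, TPC1 replicate 2 was its highest TPC1 library, and WB1 lay wholly above TPC1. It rose in WB1 by 1.16 on the log2 scale (standard error 0.19, limma adjusted p = 0.000457) and in TD5 by 0.63 (limma adjusted p = 0.0439), while the difference in D11 was 0.11 (limma adjusted p = 0.691). WB1 also differed from D11 (log2 difference 1.05, limma adjusted p = 0.00187), but TD5 did not pass the test against D11 (0.52, limma adjusted p = 0.0618). The call in TD5 was lost without TPC1 replicate 1 (0.51), TPC1 replicate 3 (0.50), TD5 replicate 1 (0.46) or TD5 replicate 2 (0.60), and also without any library of D11 or without WB1 replicate 2, where the difference stayed at 0.63. The authors' methods name no strand setting, so reads that run past the end of LGR5 and reads of AC078860.1 cannot be told apart. The other 6 tested neighbours, ZFC3H1, THAP2, AC073612.1, TMEM19, RAB21 and TBC1D15, were called in no clone, and their log2 differences from TPC1 lay between −0.13 and 0.35.

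The rest of the pathway was read from 131 other Wnt genes, listed by role, of which 80 passed the filter on low values. They were listed from textbook knowledge, but with earlier results of these data known. No test of the list as a set was run. A call needed a limma p that stayed under 0.05 after Benjamini-Hochberg adjustment over all tested genes, together with a change of at least 1.5-fold. In D11 0 were called higher and 5 lower, where 2.89% of all tested genes were called higher and 1.95% lower. In WB1 3 were called higher and 3 lower, against 3.39% and 1.59%, and in TD5 0 higher and 3 lower, against 1.12% and 1.48%. At an unadjusted p under 0.05 there were 35, 34 and 28 of the 80 genes in D11, WB1 and TD5, where 44.6%, 42.7% and 27.1% of all tested genes passed, and voom on the estimated reads also called 0 higher in D11 and TD5. The median log2 difference of the 80 genes was 0.03, 0.02 and 0.02, beside 0.05, 0.06 and 0.00 over all tested genes. In all, 10 genes were called in at least 1 clone, 4 of them in 2 clones and 0 in all 3, against 8.68%, 2.45% and 0.649% of all tested genes. The share of 8.68% also stands beside the counts of called genes by role that follow.

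Ligands and receptors were mostly low or little changed. Of 25 genes for ligands and their secretion 8 were tested, and WNT9A alone passed, rising by 0.64 on the log2 scale in WB1 (limma adjusted p = 0.013). WNT9A had 20, 14 and 12 scaled reads in TPC1 and 28, 26 and 55 in WB1, and the call was lost without WB1 replicate 3 (0.42, limma adjusted p = 0.0677) or TPC1 replicate 3 (0.57, limma adjusted p = 0.0607) and under 1.5-fold with a constant of 4 (0.28). Of 17 receptors 13 were tested, and FZD4, a Frizzled receptor, passed in WB1. FZD4 had 301, 363 and 303 scaled reads in TPC1 and 514, 589 and 568 in WB1 (log2 difference 0.76, limma adjusted p = 2.08e-05), while D11 (459 to 482) and TD5 (402 to 448) also lay above TPC1 with differences of 0.51 and 0.36 that stayed under 1.5-fold. LRP6, a co-receptor that DKK1 binds, was at 943 ± 79.9 in TPC1, and its log2 differences were 0.00, −0.04 and −0.24 in D11, WB1 and TD5 (limma adjusted p = 0.999, 0.712 and 0.0373). LRP5, the other such co-receptor, was at 1550 ± 122 in TPC1 and below it in every library of D11 and WB1, with log2 differences of −0.24, −0.47 and −0.12 (limma adjusted p = 0.0279, 0.000388 and 0.328), all under 1.5-fold and so not called. Of 15 secreted or membrane inhibitors 3 were tested and 0 called, so DKK1 was among the few inhibitors of this kind that these cells expressed above the filter.

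In the cytoplasm, 18 of 21 transducers were tested and 1 passed. APC2, a relative of the tumour suppressor APC, fell in D11 from 353, 372 and 364 scaled reads in TPC1 to 224, 230 and 218 (log2 difference −0.65, limma adjusted p = 9.05e-05), a difference that was −0.54 and under 1.5-fold both after the GC correction and with a constant of 4. CTNNB1, which encodes beta-catenin, was at 10920 ± 286 scaled reads in TPC1 and differed by −0.06, 0.05 and 0.02 on the log2 scale in D11, WB1 and TD5 (limma adjusted p = 0.295, 0.407 and 0.866).

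Among the 14 nuclear factors, all tested, TCF7L1 was the only one called. TCF7L1, which acts mainly as a repressor of Wnt targets, had 482, 411 and 556 scaled reads in TPC1, while D11 had 272, 232 and 219, WB1 239, 268 and 271 and TD5 303, 321 and 333. All 9 clone libraries lay below all 3 TPC1 libraries. TCF7L1 fell by 0.94 on the log2 scale in D11 and by 0.84 in WB1 (limma adjusted p = 1.5e-05 and 5.11e-05). In TD5 the difference was −0.56 (limma adjusted p = 0.00282), which is under 1.5-fold on this scale and so not called. The plain mean of TCF7L1 in TD5 was 0.66 times that of TPC1, which is just past 1.5-fold. TCF7L2, which is the TCF factor of many epithelia, had differences of −0.23, −0.44 and −0.17 (limma adjusted p = 0.0303, 0.000746 and 0.185), none of 1.5-fold. The sequence before the start of TCF7L1 (RefSeq, GRCh38.p14, chr2:85133142-85133391, plus strand) is shown because this factor was called lower in D11 and WB1, with 0 matches to CTTTGAT or CTTTGAA and a GC content of 72%.
TCF7L1: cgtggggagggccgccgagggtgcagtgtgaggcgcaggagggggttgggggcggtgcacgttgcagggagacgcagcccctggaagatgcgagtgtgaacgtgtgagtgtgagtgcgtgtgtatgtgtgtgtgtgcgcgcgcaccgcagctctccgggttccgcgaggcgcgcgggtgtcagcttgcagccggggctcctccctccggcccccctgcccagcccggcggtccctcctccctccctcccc

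**Figure D4:**
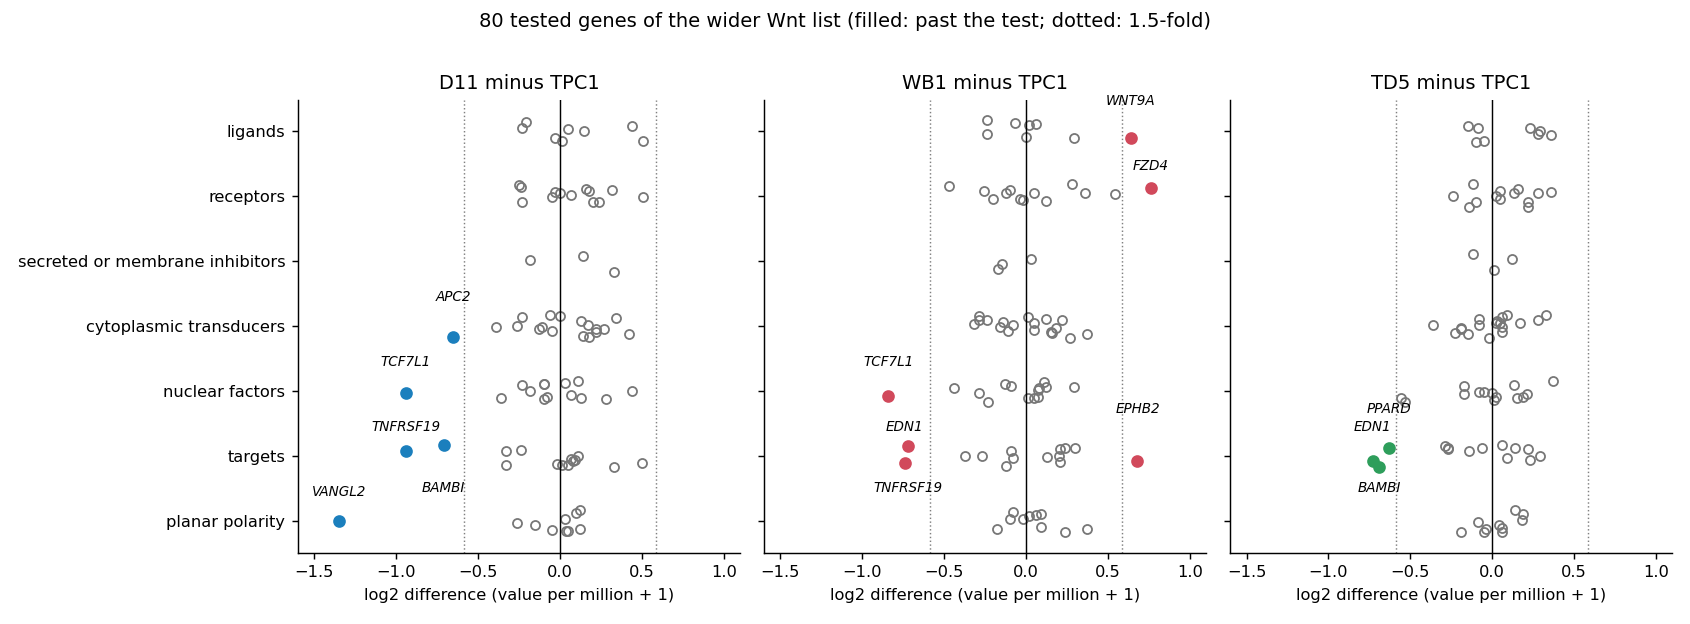
Log2 difference of each clone from TPC1 for the 80 tested genes of the wider list, in rows by role, with genes called by limma at 1.5-fold as filled and named points and dotted lines at 1.5-fold. The 3 genes called higher, WNT9A, FZD4 and EPHB2, are all in WB1, and VANGL2 in D11 has the lowest value, −1.35.

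Of 28 targets of the pathway 14 were tested, and 5 were called in at least 1 clone, where 8.68% of all tested genes were. The list was written with earlier results of these data known, so nothing is read from this share. EPHB2, an ephrin receptor, rose in WB1 from 212, 216 and 216 scaled reads in TPC1 to 391, 339 and 338 (log2 difference 0.68, limma adjusted p = 0.000285) and had 169, 154 and 178 in D11, a difference of −0.33 that stayed under 1.5-fold. TNFRSF19, a receptor of the tumour necrosis factor family, fell in D11 and WB1, from 58, 27 and 34 in TPC1 to 16, 9 and 7 (−0.94, limma adjusted p = 0.000922) and 14, 16 and 16 (−0.72, limma adjusted p = 0.00516), and had 38, 41 and 29 in TD5. BAMBI, a pseudoreceptor that dampens TGF-beta signalling, fell from 138, 87 and 129 in TPC1 to 58, 61 and 72 in D11 (−0.71, limma adjusted p = 0.00212) and 62, 71 and 61 in TD5 (−0.69, limma adjusted p = 0.00503). EDN1, which encodes endothelin 1, fell from 59, 27 and 57 to 17, 25 and 17 in WB1 (−0.74, limma adjusted p = 0.00475) and 19, 23 and 17 in TD5 (−0.73, limma adjusted p = 0.0103). PPARD, a nuclear receptor for fatty acids, fell from 807, 727 and 858 in TPC1 to 457, 554 and 512 in TD5 (−0.63, limma adjusted p = 0.000146). In 4 of these 5 genes the called change was a fall. Over all 14 tested targets the median log2 difference was 0.03, 0.03 and −0.10 in D11, WB1 and TD5. Over all tested genes it was 0.05, 0.06 and 0.00.

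Several of these calls rested on single libraries or on the constant. With a constant of 4 in place of 1 none of the 5 was called, at 0.56 for EPHB2, −0.39 and −0.32 for TNFRSF19 in D11 and WB1, −0.45 and −0.44 for BAMBI in D11 and TD5, −0.35 for EDN1 in WB1 and in TD5, and −0.58 for PPARD. EPHB2 was also under 1.5-fold after the length correction (0.56). Without TPC1 replicate 1, TNFRSF19 in WB1 (−0.51), BAMBI in TD5 (−0.58) and EDN1 in TD5 (−0.60, limma adjusted p = 0.0619) were no longer called. Without TPC1 replicate 3, EDN1 in TD5 (−0.62, limma adjusted p = 0.0645) and PPARD in TD5 (−0.58) were not, and without TD5 replicate 1 PPARD (−0.56) was not. MYC and CCND1, well known targets in tumours, were called in no clone. MYC differed by 0.05, −0.08 and 0.06 from a TPC1 mean of 5062 ± 306, and CCND1 by 0.01, −0.12 and −0.27 from 13104 ± 332, where only CCND1 in TD5 had an adjusted p under 0.05 (limma, 0.0257).

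On the log2(value per 1000000 + 1) scale the largest difference from TPC1 in the wider list was in planar cell polarity, where 10 of 11 genes were tested and 1 was called. VANGL2, a membrane protein that sets the plane of polarity, fell in D11 alone, from 418, 372 and 386 scaled reads in TPC1 to 135, 147 and 144 (log2 difference −1.35, limma adjusted p = 4.74e-08). It had 343, 347 and 403 in WB1 and 390, 325 and 392 in TD5, both overlapping with TPC1, and both clones were above D11 (1.24 and 1.26, limma adjusted p = 1.79e-07 and 1.23e-07).

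Between clones, 2 genes of the wider list were called for WB1 against D11, 5 for TD5 against D11 and 1 for TD5 against WB1, where 2.85%, 3.99% and 2.33% of all tested genes were called in either direction. These 6 genes were EPHB2, VANGL2, TNFRSF19, PPARD, WNT3 and TIAM1. WNT3, a ligand, had 205, 213 and 165 scaled reads in TPC1 and was called in no clone against it, but TD5 (171, 189 and 178) was below D11 (275, 278 and 299) by 0.61 on the log2 scale (log2 difference −0.61, limma adjusted p = 0.00154). TIAM1, an exchange factor for the small GTPase Rac, likewise differed between TD5 (697, 579 and 642) and D11 (1161, 1119 and 1070), with a log2 difference of −0.79 (limma adjusted p = 1.58e-06).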

How the data were processed

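Per the labels and the study's methods, RNA from 12 libraries of 4 lines was prepared with a stranded mRNA kit, and the authors mapped paired-end reads to GRCh38 with STAR 2.5.3a, counted them per gene with HTSeq 0.9.1 and brought every library to 20000000 aligned reads. After this scaling the deposited values were rounded up to whole numbers, and they were treated as a score in place of raw reads, so no count model was used although the design had named one for raw reads. The strand setting of the counting is not given in the sources used here.

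The members and lists were chosen with earlier results of these data known, and members carry no p. Each value was expressed per 1000000 of its library's sum, 1 was added and log2 taken. The limma package (3.58.1, R 4.3.3) fitted 1 mean per line with a mean-variance trend to the 16027 of 58302 genes that reached 1 per 1000000 in 3 or more libraries. A call needed 1.5-fold on this log2 scale and a p under 0.05 after Benjamini-Hochberg adjustment. The calling was also run on simulated data, with 1 setting of the spread for all genes and changes larger than 1.5-fold. That run does not cover calls near 1.5-fold or genes of larger spread, and its outcome is not reported here. Members were counted where every library of a clone lay on one side of all TPC1 libraries with plain means 1.5-fold apart. Named were the 10 members, the wider-list genes called in a clone, CTNNB1, LRP6, TCF7L2, MYC and CCND1, the 5 genes nearest to LGR5, tested genes within 500 kb of it, DICER1 and the markers, of which 1 is not reported here. WNT3, TIAM1, LRP5 and AC004805.1 were added after their values were seen. Positions and exon lengths come from GENCODE 44 on GRCh38, and 99.1% of tested genes had a GC content. Same-numbered libraries of D11 and TD5 deviated together (correlations of 0.11, 0.17 and 0.35), those of the other pairs of lines did not in all 3 numbers, and the labels name no shared day or batch, so the replicate number was a block in an alternative.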

Additional observations from a re-analysis of the deposited data

Results flagged for a closer look

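In 6 genes of the wider Wnt list the effect differed between clones, and in each the difference between the clones was itself tested with limma over all tested genes. VANGL2 was higher in WB1 and in TD5 than in D11, by 1.24 and 1.26 on the log2 scale. EPHB2 was higher in WB1 than in D11 by 1.01. TNFRSF19 was higher in TD5 than in D11 by 0.87 and than in WB1 by 0.66, and the second of these was lost without WB1 replicate 1 (limma adjusted p = 0.0677), WB1 replicate 2 (0.0555), TD5 replicate 1 (0.0506) or TD5 replicate 2 (0.0763). TIAM1, PPARD and WNT3 were lower in TD5 than in D11, with log2 differences of −0.79, −0.61 and −0.61. Without TD5 replicate 1 PPARD (−0.54) and WNT3 (−0.58) were under 1.5-fold, and WNT3 also without D11 replicate 3 (−0.57). With a constant of 4 in place of 1, PPARD (−0.56), WNT3 (−0.49) and both differences of TNFRSF19 (0.36 against D11 and 0.28 against WB1) were under 1.5-fold, and so were PPARD and WNT3 with median-of-ratios scaling (−0.56 in both) and the length correction (−0.57 in both).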

How the results depend on the processing

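The precision of low genes such as AXIN2, TNFRSF19, EDN1 and WNT9A is limited by depth, and 3 libraries per line give no stronger check than leaving 1 out. Of the members' log2 differences from TPC1, those of DKK1, TCF7 and WNT5A in D11 (0.05, 0.07 and 0.07) changed sign or reached 0 under some alternative, and all others kept their sign under every alternative run. The counts of wider-list calls (higher and lower) moved most with no minimum fold, to 12 and 15 in D11, 17 and 14 in WB1, 7 and 9 in TD5, 8 and 4 for WB1 against D11, 12 and 12 for TD5 against D11, and 9 and 8 for TD5 against WB1. With a constant of 4 in place of 1 on values per 1000000, 2 genes were lower in D11 (5 in the reported fit). In WB1 1 was higher (3) and 1 lower (3), and in TD5 0 were lower (3). For TD5 against D11 1 was higher (2) and 1 lower (3), and for TD5 against WB1 0 were higher (1). A constant of 0.1 gave 1 higher in D11 (0), 4 higher in WB1 (3), 4 lower in TD5 (3) and 3 higher in TD5 against D11 (2). A filter at 5 per 1000000 gave 1 lower in WB1, 1 higher in TD5 against D11 and 0 higher in TD5 against WB1. Median-of-ratios scaling and the length correction each left 1 lower in TD5 against D11, and the GC correction gave 1 lower in TD5 against WB1 (0). Whether any of these settings shows a cause was not tested. Leaving out 1 library at a time gave 0 to 1 higher in D11, 1 to 4 lower in TD5, 0 to 1 lower in WB1 against D11, 1 to 3 lower in TD5 against D11, and 0 to 1 higher and 0 to 1 lower in TD5 against WB1. The lowest of these came without TPC1 replicate 1 or 3 for TD5 (1), and without TD5 replicate 1 for TD5 against D11 (1). Among members, no minimum fold gave 4 higher in D11, 4 higher and 2 lower in WB1 and 1 lower in TD5, 2-fold gave 0 higher in D11 and 0 lower in WB1, and leaving out 1 library gave 1 to 3 higher in D11 and 0 to 1 lower in TD5. With the replicate block, 5 genes of the wider list were lower in D11, 3 higher and 3 lower in WB1, 3 lower in TD5, and 2 higher and 3 lower in TD5 against D11, all as without it, and LGR5 in WB1 was at 1.70, while AC078860.1 in TD5 lost its call (limma adjusted p = 0.0506). The alternatives for AC078860.1 were chosen after seeing the data, and voom on the estimated reads (0.0581), no filter (0.134), the GC correction (0.0768) and a fit of the compared lines alone (0.0932) also lost that call.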
